A study of Mus musculus with 3 samples.

Results

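A dendritic cell culture grown with the glutamine antagonist DON was compared directly with a dendritic cell culture grown in scarce glutamine. All cell types of the cultures were kept. The comparison used 18536 cells of 28903 in the series. These were 8887 cells of the DON library and 9649 cells of the low glutamine library, from 18779 deposited barcodes, each with 1000 or more UMIs (unique molecular identifiers, which count captured RNA molecules), 500 or more genes and no more than 10% of UMIs from mitochondrial genes. Within them, 2 narrower populations were set by counts. Siglech cells held at least 3 UMIs of Siglech, a surface lectin of plasmacytoid dendritic cells (pDC), and numbered 3358 with DON and 3194 at low glutamine. cDC1-marker cells had at least 4 of the 7 genes Xcr1, Clec9a, Batf3, Naaa, Ifi205, Rab7b and Cadm1 detected, which mark type 1 conventional dendritic cells (cDC1), and numbered 658 and 255.

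All cells came from wild-type C57BL/6 mice and were grown in vitro with FLT3L, a cytokine on which dendritic cells depend to develop. They were scraped from 6-well plates and measured with 10x Genomics droplet chemistry (Single Cell 3' v3). The DON culture held 2 mM glutamine with 1 µM DON, the low glutamine culture held 50 µM glutamine without drug, and the control culture, used here only as a reference level, held 2 mM glutamine. Each group was 1 library, and the labels give neither the number nor the age of the mice. There is therefore no replicate and no test anywhere below. Differences are given as sizes, with intervals that cover counting error only and not the variation between cultures.

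Glutamine is the main nitrogen donor of growing cells. Its amide nitrogen is used to make purines, pyrimidines, amino sugars and asparagine, and its carbon enters the citric acid cycle. DON is a diazo analogue of glutamine that binds irreversibly to the active sites of enzymes that use glutamine, so that it blocks use while the medium stays replete, whereas low medium glutamine limits the amino acid itself. Cells short of an amino acid activate the kinase GCN2 and the transcription factor ATF4, which turns on asparagine synthetase, serine synthesis enzymes and amino acid transporters.

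The DON library had 87611658 UMIs in 8962 barcodes and the low glutamine library 92002827 in 9817. The filters kept 99.2% and 98.3% of barcodes. The kept cells had a median of 8145 and 7909 UMIs and a median mitochondrial share of 4.04% and 4.19%, against 6890 UMIs and 3.56% in the 10367 control cells. Between the DON and low glutamine libraries, 31 barcodes of kept cells were shared. Cells with at most 0.5% of their UMIs from a list of cell cycle genes made up 61.7% of the DON library, 48.8% of the low glutamine library and 71.6% of control. After each cell was thinned to 2000 UMIs, progenitor markers (at least 3 detected) were found in 22.9% of DON cells, 37.5% of low glutamine cells and 18.8% of control cells. The progenitor bound also took in 20.6% and 32.7% of Siglech cells and 14.3% and 17.3% of cDC1-marker cells, with DON and at low glutamine. It is thus not a count of progenitor cells. Cell cycle UMIs and progenitor markers both moved with the comparison. Medians within cells with few cell cycle UMIs are given beside most lists below.

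The Siglech share was higher with DON over all UMIs, and the shares of both libraries were closer after thinning. They made up 37.8% of DON cells (exact binomial 95% interval 36.8 to 38.8) and 33.1% of low glutamine cells (32.2 to 34.1), with 32.4% in control. After thinning to 2000 UMIs, which left out 197 and 362 shallower cells, the shares were 15.4% (14.7 to 16.2) and 14.8% (14.1 to 15.6). These intervals overlap. In the thinned cells of the gate, at least 3 pDC markers, Siglech included, were found in 95.8% with DON and 96.0% at low glutamine. The same bound was passed by 54.8% and 54.3% of all thinned cells, and the gate rule favours a higher share inside it. Siglech itself was at 966 CPM (the summed UMIs of a gene scaled to a total of 1000000) in DON and 1046 CPM at low glutamine within the gate, and at 76.8 and 83.6 CPM in the cDC1-marker cells.

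The cDC1-marker share was higher with DON than at low glutamine. It was 7.40% (6.87 to 7.97) with DON, 2.64% (2.33 to 2.98) at low glutamine and 15.0% in control. Thinning leaves few cells with 4 of the 7 genes, at 0.483% (0.349 to 0.653) against 0.345% (0.236 to 0.486), and those intervals overlap. With at least 2 of the 7 genes after thinning, a bound chosen after the data were seen, the shares were 6.49% (5.98 to 7.03) and 2.58% (2.27 to 2.93). Cells inside the gate were deeper with DON, with a median of 12648 UMIs against 10683. At least 3 cDC1 markers, gate genes included, were found in 97.1% and 97.6% of the thinned cells. The gate rule itself favours such high shares, so they do not show what the cells are. The same bound was passed by 39.7% and 33.1% of all thinned cells and by 35.5% and 35.0% of Siglech cells. The gate genes themselves, which chose the cells, were not alike: Xcr1 was at 41.4 CPM with DON and 90.8 CPM at low glutamine, and Batf3 at 143 and 113 CPM. Irf8, a cDC1 factor outside the gate rule, was at 1666 and 1562 CPM. In the gate, 68 DON cells and 20 low glutamine cells also passed the Siglech gate.

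**Figure D1:**
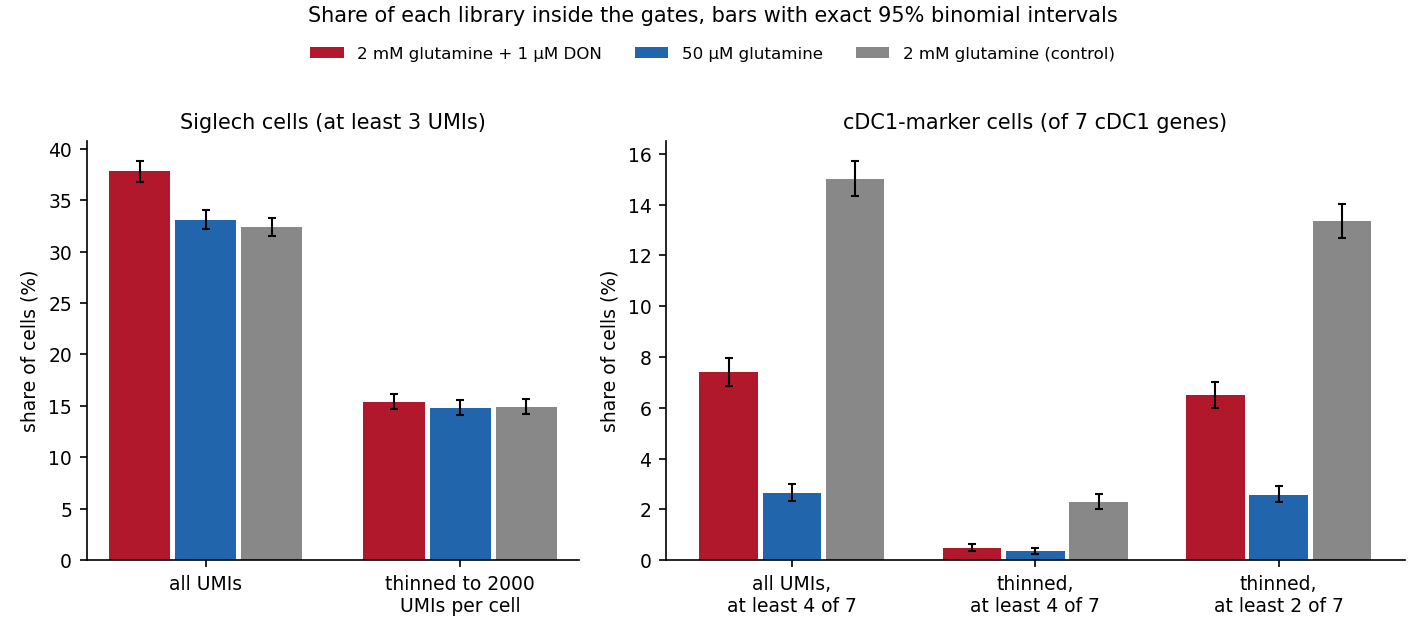
Share of cells (%, vertical axis) inside the Siglech gate (left) and the cDC1-marker gate (right) in the DON, 50 µM glutamine and control libraries, with exact 95% binomial intervals, before and after thinning. The Siglech shares of 37.8% and 33.1% became 15.4% and 14.8%, whereas the cDC1-marker share with DON lay above that at 50 µM under each bound shown, with overlapping intervals for at least 4 of 7 after thinning.

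Most genes were at nearly the same level with DON and at low glutamine. A ratio here is the log2 of DON CPM over low glutamine CPM with 5 CPM added to each, so 0 is no difference and positive values are higher with DON. Over the 9575 genes of at least 5 CPM in the whole libraries the median ratio was -0.08, and 96.1% of genes lay within 1.5-fold. Among 6159 genes of at least 20 CPM, 22 had a level 2-fold or more above low glutamine (0.357%) and 22 had one 2-fold or more below it (0.357%). In whole libraries, fewer cells of a type and less RNA per cell cannot be told apart. Control lay nearer to the DON level than to the low glutamine level for 22 of the 22 higher and 22 of the 22 lower genes.

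The 22 genes higher with DON were led by Ankrd37, a target of hypoxia-inducible factor (2.03), Aldoc, a glycolytic aldolase (1.83), and Scd2, a fatty acid desaturase (1.42). Next came Plbd1, a lysosomal phospholipase-like protein (1.31), Ifi30, the lysosomal thiol reductase of antigen processing (1.30), the cDC1 transcription factor Batf3 (1.27), the metalloprotease Adam19 (1.24), the chemokine receptor Ccr9 (1.19) and the sterol synthesis enzyme Fdps (1.18). The 22 genes lower with DON were led by Asns, which makes asparagine with glutamine as nitrogen donor (-2.84). They also held the platelet chemokine Ppbp (-1.97), the activation antigen Cd69 (-1.84), the stress transcription factor Atf5 (-1.68), the granule proteases and peroxidase of early myeloid cells Ctsg (-1.68) and Mpo (-1.40), the mitochondrial carboxykinase Pck2 (-1.55), Shmt2 (-1.43) and Phgdh (-1.35) of serine and glycine metabolism, and the cyclin-dependent kinase Cdk6 (-1.35).

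Within Siglech cells, 26 of 6210 genes were 2-fold or more higher (0.419%) and 10 were lower by as much (0.161%). Control lay nearer to DON for 22 of the 26 and for 10 of the 10. Within cDC1-marker cells, 25 of 5884 genes were higher (0.425%) and 36 were lower (0.612%). Here control lay nearer to DON for 21 of the 25 and for 19 of the 36, and 2 of the 36, Xcr1 and Cadm1, are gate genes. The 2 gates shared 8 genes that were 2-fold higher, which is 30.8% of the Siglech list and 32% of the cDC1-marker list: Aldoc, Ankrd37, Fdps, Gng11, Mif, Nrgn, Pf4 and Scd2. They shared 3 that were lower, which is 30% and 8.33%: Asns, Ctsg and Mpo. Both gates were drawn from the same libraries and some cells passed both, so these overlaps are a description. With cells of both gates left out, Pf4 and Nrgn had ratios of -0.21 and -0.22 in cDC1-marker cells. In Siglech cells they were then 1.95 and 0.70.

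**Figure D2:**
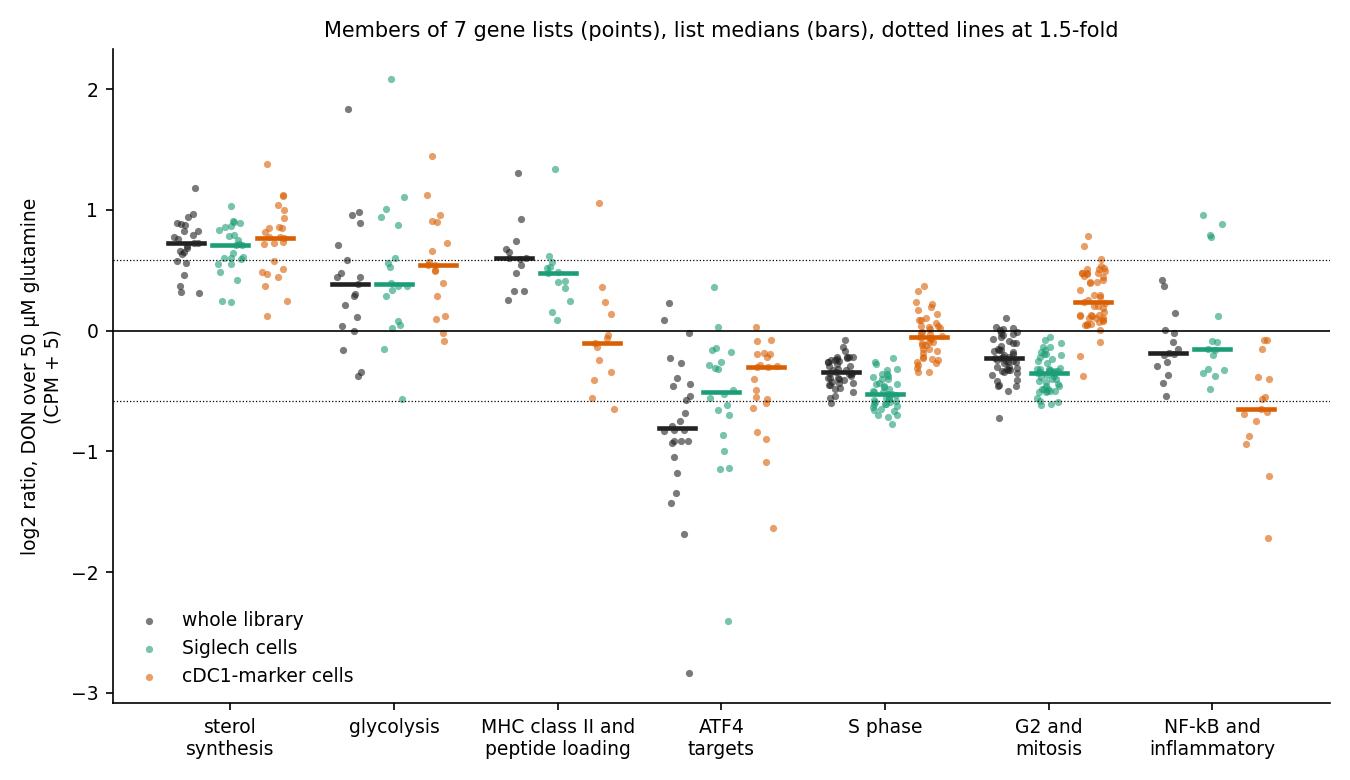
Each point is a measured gene of the list named on the horizontal axis, placed by its log2 ratio of DON over 50 µM glutamine (CPM + 5, vertical axis) in the whole library, in Siglech cells and in cDC1-marker cells, with bars at the list medians. Each measured sterol synthesis gene lies above 0 in each population, and no measured ATF4 target is 1.5-fold higher.

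Sterol synthesis was higher with DON in each population. The pathway builds cholesterol from acetyl-CoA through mevalonate and farnesyl diphosphate under the transcription factor SREBP2. Of the 25 listed genes, 24 were measured at 5 CPM or more. Whole-library levels were at least 1.5-fold higher with DON for 18 of 24, where 193 of all 9575 genes were so (2.02%), and lower for 0 of 24, where 176 were (1.84%). Siglech cells gave 18 of 24 higher, against 174 of 9430 genes (1.85%), and 0 lower, against 181 (1.92%). In cDC1-marker cells 16 of 24 were higher, against 141 of 9235 genes (1.53%), and 0 were lower, against 259 (2.8%). The same shares over all genes stand beside the 1.5-fold counts of every list below in these populations. List medians were 0.73, 0.71 and 0.77, against -0.08, -0.10 and -0.02 over all genes. The ratio was above 0 for 24 of 24 genes in each population. Control lay between the 2 treated libraries for 24, 24 and 22 of the 24.

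Hmgcs1, which makes the mevalonate precursor HMG-CoA (ENSMUSG00000093930, GRCm38 chr13:119690379-119708260, plus strand), was at 169 CPM with DON, 85.8 CPM at low glutamine and 120 CPM in control (log2 ratio 0.94). Its levels were 243, 139 and 173 CPM in Siglech cells and 177, 86.2 and 113 CPM in cDC1-marker cells, in the same order of libraries. DON was thus above control and control above low glutamine in all 3 populations. The promoter of Hmgcs1 is shown because its gene moved with the list and it is the only one of the matched list genes that holds the sterol element searched for. The sequence is the 250 bases before the start from RefSeq on GRCm38.p6 (chr13:119690101-119690350, plus strand), 5′ to 3′, with the match to TCACNCCAC in capitals, 137 bases before the start.
Hmgcs1: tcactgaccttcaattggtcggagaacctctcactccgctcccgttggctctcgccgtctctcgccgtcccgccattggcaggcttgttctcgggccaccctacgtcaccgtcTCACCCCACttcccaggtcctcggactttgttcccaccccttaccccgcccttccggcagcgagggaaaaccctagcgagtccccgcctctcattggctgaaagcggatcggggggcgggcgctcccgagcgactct
The letters TCACNCCAC, on either strand, were in 1 of the 17 sterol genes with a promoter in the table (5.88%) and in 1.22% of all 27025 genes, so at this list size the share is only a description and says nothing of the factor.

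Fdps makes farnesyl diphosphate (ENSMUSG00000059743, chr3:89093588-89101959, minus strand) and had the largest ratio of the list. In the whole libraries it was at 410 CPM with DON, 178 CPM at low glutamine and 303 CPM in control (log2 ratio 1.18, counting interval 1.16 to 1.21). In Siglech cells the levels were 508, 245 and 363 CPM (1.03) and in cDC1-marker cells 434, 164 and 296 CPM (1.38, counting interval 1.25 to 1.51). The other upstream enzymes followed the same order. Idi1, the isopentenyl isomerase, was at 168, 83.5 and 139 CPM (0.97), and Mvk, mevalonate kinase, at 28.1, 12.8 and 22.1 CPM (0.89). Of the later steps, Sqle, which forms the epoxide of squalene, was at 70.7, 38.6 and 53.9 CPM (0.79), and at 68.4, 29.0 and 47.2 CPM in cDC1-marker cells (1.11). Cyp51, the lanosterol demethylase, was at 104, 56.8 and 80.6 CPM (0.82), and Msmo1, the sterol methyl oxidase, at 127, 66.4 and 95.4 CPM (0.89).

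Of the regulators of the pathway, Insig1, which holds SREBP proteins in the endoplasmic reticulum when sterol is plentiful, was at 45.4, 26.0 and 36.0 CPM (0.70). Srebf2, which encodes SREBP2 itself, was at 123, 94.2 and 120 CPM (0.37). The factor was thus closer between the libraries than the median enzyme of its pathway. In cells with few cell cycle UMIs the list medians were 0.73, 0.74 and 0.76, and with cells carrying 3 of 7 progenitor genes left out the whole-library median was 0.70.

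Fatty acid synthesis genes were higher by less, apart from Scd2. The list median was 0.33 in whole libraries (1 of 12 measured genes at least 1.5-fold higher), 0.31 in Siglech cells (1 of 12) and 0.42 in cDC1-marker cells (4 of 12), and 0 were lower in each. The medians were 0.35, 0.35 and 0.69 in cells with few cell cycle UMIs. Scd2, which puts the first double bond into saturated fatty acids (ENSMUSG00000025203, chr19:44293674-44306864, plus strand), was at 265 CPM with DON, 95.7 CPM at low glutamine and 216 CPM in control (1.42). It was at 316, 108 and 243 CPM in Siglech cells (1.501) and at 235, 68.8 and 181 CPM in cDC1-marker cells (1.70). The DON library was the highest in all 3 populations. Elovl6, which lengthens fatty acids, had ratios of 0.51, 0.58 and 0.74, and Srebf1, the regulator of the pathway, 0.45, 0.47 and 0.64. Fasn, the fatty acid synthase, was within 1.5-fold in each (0.24, 0.30 and 0.45), as was Acly, which supplies acetyl-CoA (0.01, 0.01 and 0.14).

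Cholesterol export genes were also higher with DON in whole libraries and Siglech cells, while there DON and control were alike. These are targets of the sterol-sensing LXR receptors. Of 8 measured whole-library members 4 were at least 1.5-fold higher (median 0.52), of 7 in Siglech cells 4 were (median 0.77), and of 8 in cDC1-marker cells 2 were (median 0.38). The exporter Abca1 was at 15.4 CPM with DON, 4.52 CPM at low glutamine and 13.4 CPM in control (1.10). The exporter Abcg1 was at 72.0, 32 and 79.0 CPM (1.06), at 85.6, 38.3 and 89.3 CPM in Siglech cells (1.07) and at 61.0, 47.4 and 67.5 CPM in cDC1-marker cells (0.33). Pltp, the phospholipid transfer protein, was at 76.0, 34.6 and 71.1 CPM (1.03). Low glutamine stood apart from both other libraries for these genes. In cells with few cell cycle UMIs the medians were 0.29, 0.50 and 0.84.

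**Figure D3:**
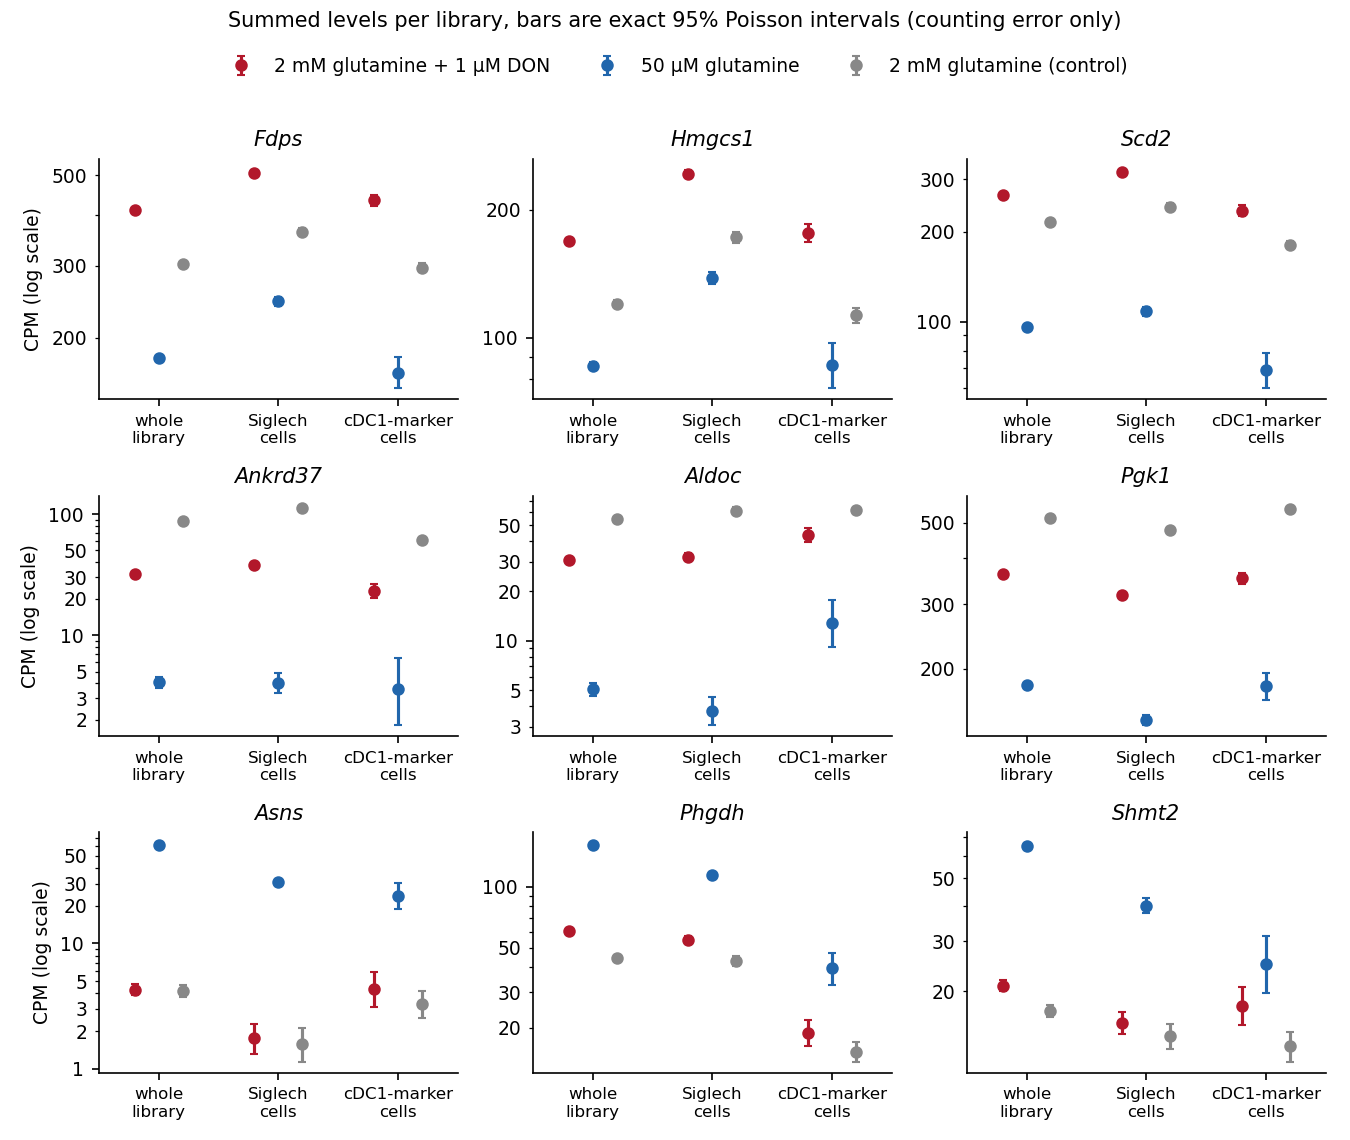
Summed levels (CPM, log scale) of 9 genes in the whole library, Siglech cells and cDC1-marker cells, by library, with exact 95% Poisson intervals that cover counting error only. Fdps, Hmgcs1 and Scd2 run from DON over control to 50 µM glutamine, Ankrd37, Aldoc and Pgk1 run from control over DON to 50 µM glutamine, and Asns, Phgdh and Shmt2 are highest at 50 µM glutamine.

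Glycolysis genes were higher with DON than at low glutamine, with control higher still. Of 19 measured genes in whole libraries 5 were higher by 1.5-fold or more and 0 were lower (median 0.38). In Siglech cells it was 6 of 18 (median 0.38) and in cDC1-marker cells 7 of 18 (median 0.54), with 0 lower in each. Control lay between the treated libraries for 0, 0 and 2 of these genes. In cells with few cell cycle UMIs the medians were 0.27, 0.45 and 0.51.

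Aldoc, a fructose-bisphosphate aldolase (ENSMUSG00000017390, chr11:78322968-78327781, plus strand), was at 30.8 CPM with DON, 5.07 CPM at low glutamine and 55.0 CPM in control (1.83, counting interval 1.75 to 1.91). It was at 32.2, 3.77 and 61.2 CPM in Siglech cells (2.08) and at 43.5, 12.8 and 61.6 CPM in cDC1-marker cells (1.44). The low glutamine library was the lowest each time, outside the counting intervals of the other libraries. Pgk1, phosphoglycerate kinase (ENSMUSG00000062070, chrX:106187100-106203699, plus strand), was at 362, 180 and 516 CPM (0.99), and at 317, 145 and 478 CPM in Siglech cells (1.10). Aldoa, the main aldolase, was at 495, 265 and 665 CPM (0.89), and Pkm, pyruvate kinase, at 433, 263 and 537 CPM (0.71). Eno1, the enolase, differed from these in that DON reached control, at 116 CPM against 118 CPM, with 57.0 CPM at low glutamine (0.96). Pgam1, phosphoglycerate mutase, was at 218, 212 and 300 CPM (0.04), and Slc16a3, which exports lactate, at 9.19, 5.18 and 27.7 CPM (0.48).

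Targets of hypoxia-inducible factor had list medians of 0.08, 0.07 and 0.06, and Ankrd37 and Mif stood out from them. Of 19, 18 and 15 measured genes 2, 3 and 2 were at least 1.5-fold higher, and 1, 0 and 0 were lower. Ankrd37, an ankyrin repeat protein, was at 32.1 CPM with DON, 4.10 CPM at low glutamine and 87.7 CPM in control (2.03, counting interval 1.95 to 2.10). It was at 37.7, 4.03 and 111 CPM in Siglech cells (2.24) and at 23.3, 3.62 and 61.6 CPM in cDC1-marker cells (1.71), and low glutamine was again the lowest. Mif, a cytokine, was at 568, 342 and 737 CPM (0.72), at 475, 209 and 680 CPM in Siglech cells (1.17) and at 547, 219 and 717 CPM in cDC1-marker cells (1.30). Bnip3, a mitophagy receptor, was at 17.5, 14.2 and 37.2 CPM (0.23), and Pdk1, which restrains pyruvate entry into mitochondria, at 17.7, 20.1 and 30.5 CPM (-0.14). Both treated libraries were below control for these. Vegfa, the vascular growth factor, was lower with DON, at 3.19, 10.0 and 4.86 CPM (-0.88).

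The promoter of Ankrd37 is shown because this gene had the largest ratio of the list and holds 2 copies of the core hypoxia element. Its 250 bases before the start are given from RefSeq on GRCm38.p6 (chr8:45999851-46000100, minus strand), 5′ to 3′, with both ACGTG matches in capitals, 241 and 6 bases before the start.
Ankrd37: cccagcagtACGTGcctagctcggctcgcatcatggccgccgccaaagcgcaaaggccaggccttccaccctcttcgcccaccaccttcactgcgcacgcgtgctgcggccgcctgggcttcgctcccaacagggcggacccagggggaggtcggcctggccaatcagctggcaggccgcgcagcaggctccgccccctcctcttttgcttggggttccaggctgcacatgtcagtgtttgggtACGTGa
ACGTG, on either strand, was in 12 of the 18 listed hypoxia targets with a promoter in the table (66.7%), which include Bnip3 and Vegfa, and in 18.5% of all 27025 genes. Genes with the element thus had ratios of 2.03, 0.23 and -0.88.

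ATF4 targets were lower with DON and close to control. Of 26 measured genes in whole libraries 16 were lower by 1.5-fold or more and 0 were higher (median -0.81). In Siglech cells 8 of 20 were lower (median -0.51) and in cDC1-marker cells 6 of 21 (median -0.30), with 0 higher. DON was within 1.5-fold of control for 25 of 26, 19 of 20 and 19 of 21 of these genes, and low glutamine for 8, 10 and 14. Closeness of DON to control was not particular to this list, and its share over all genes is not given. In whole libraries it held for 42 of 42 S phase and 24 of 24 sterol synthesis genes. It held for 15 of 19 glycolysis and 6 of 13 MHC class II genes. Within cells with few cell cycle UMIs the medians were -0.26, -0.15 and -0.17. Whether the share of cycling cells sets the size of the difference was not tested.

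Asns (ENSMUSG00000029752, chr6:7675169-7693254, minus strand) had the largest ratio by size. It was at 4.27 CPM with DON, 61.4 CPM at low glutamine and 4.18 CPM in control (-2.84, counting interval -2.91 to -2.76). In Siglech cells the levels were 1.75, 30.8 and 1.57 CPM (-2.41), and in cDC1-marker cells 4.33, 24.0 and 3.30 CPM (-1.64). The counting intervals of DON and control overlapped in each population, and low glutamine was far above both. Among cells with few cell cycle UMIs the ratios were -1.17, -0.82 and -0.99. Without the 5 cells richest in Asns in each library, chosen after the data were seen, the ratio in cDC1-marker cells was -1.22.

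The serine and one-carbon arm of the list followed. Phgdh, the first enzyme of serine synthesis (ENSMUSG00000053398, chr3:98313170-98339990, minus strand), was at 60.8 CPM with DON, 162 CPM at low glutamine and 44.6 CPM in control (-1.35). It was at 54.8, 114 and 43.0 CPM in Siglech cells (-0.996) and at 18.9, 39.5 and 15.2 CPM in cDC1-marker cells (-0.90). Low glutamine was the highest library in each. Psat1, the next enzyme, was at 29.2, 59.4 and 23 CPM (-0.91). Shmt2, which makes glycine from serine in mitochondria, was at 20.9, 64.8 and 17.0 CPM (-1.43), and in cDC1-marker cells at 17.8, 25.0 and 12.8 CPM (-0.40). Mthfd2, the mitochondrial folate enzyme after it, was at 65.4, 129 and 70.7 CPM (-0.93). In cells with few cell cycle UMIs the whole-library ratios of Phgdh and Shmt2 were -0.83 and -0.59. Those of Psat1 and Mthfd2 were nearer to no difference, at -0.06 and -0.26. Phgdh had a ratio of -0.21 in the cDC1-marker cells with few cell cycle UMIs.

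Other ATF4 targets differed in how far they were apart. Atf5, a related factor, was at 5.67, 29.3 and 4.93 CPM (-1.68), and Eif4ebp1, a brake on translation, at 39.4, 95.7 and 54.2 CPM (-1.18). Slc7a5, which imports large neutral amino acids, was at 22.5, 47.0 and 13.7 CPM (-0.92), but its ratio in cells with few cell cycle UMIs was 0.01. Atf4 itself was at 81.1, 120 and 75.4 CPM (-0.54), and Ddit3, the CHOP factor of prolonged stress, at 15.8, 22.3 and 15.9 CPM (-0.39). Trib3, a pseudokinase downstream of ATF4 and Ddit3, did not reach 5 CPM in either library, at 0.149 and 4.67 CPM. Chac1, which breaks down glutathione, was at 0.354, 5.08 and 0.314 CPM (-0.91).

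The enzymes that use the amide of glutamine are those DON can block. Of 10 measured members of the list, 3 were at least 1.5-fold lower with DON in whole libraries and 0 were higher (median -0.33). The 3 were Asns, Cad, which starts pyrimidine synthesis, at 12.8, 22 and 11.2 CPM (-0.60), and Pfas of purine synthesis, at 9.25, 16.6 and 7.31 CPM (-0.60). Only Asns was so in Siglech cells (1 of 10, median -0.35) and in cDC1-marker cells (1 of 10, median -0.17). Medians were -0.17, -0.25 and -0.01 in cells with few cell cycle UMIs. Gfpt1, which starts amino sugar synthesis, was at 28.6, 26.1 and 32.3 CPM (0.11), and Ppat, which starts purine synthesis, at 30.0, 39.3 and 23.7 CPM (-0.34). Glul, which makes glutamine, was at 26.0, 20.7 and 23.2 CPM (0.27).

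Nucleotide and translation lists leaned lower with DON in whole libraries and Siglech cells, and lay near 0 in cDC1-marker cells. Medians in the order of populations used above were -0.25, -0.30 and -0.07 for purine synthesis, -0.31, -0.42 and 0.03 for pyrimidine synthesis, and -0.47, -0.52 and -0.01 for one-carbon enzymes. Aminoacyl-tRNA synthetases had medians of -0.37, -0.28 and 0.05, and MYC and ribosome biogenesis genes -0.29, -0.20 and 0.03. Among cells with few cell cycle UMIs these lists were closer to 0 in whole libraries and Siglech cells. There the medians were -0.16, -0.23 and 0.07 for purine synthesis, -0.19, -0.23 and 0.16 for pyrimidine synthesis, and -0.23, -0.29 and 0.19 for one-carbon enzymes. They were -0.01, -0.02 and 0.12 for the synthetases and -0.04, -0.07 and 0.13 for the MYC and ribosome biogenesis genes. Impdh2, which commits purines to guanine nucleotides, was the furthest purine gene, at 138, 219 and 126 CPM (-0.65). Nuclear genes of the respiratory chain had medians of 0.02, 0.00 and 0.16, and hexosamine and glycan genes -0.04, -0.10 and -0.06.

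Cell cycle genes leaned lower in the same populations. S phase medians were -0.35, -0.52 and -0.06, with 1, 14 and 0 of 42 measured genes at least 1.5-fold lower and 0 higher. Medians for G2 and mitosis were -0.23, -0.35 and 0.24, with 1, 3 and 0 of 49 lower and 0, 0 and 3 higher. In Siglech cells Top2a, the topoisomerase that untangles replicated DNA, was at 491 CPM with DON, 738 CPM at low glutamine and 277 CPM in control (-0.58), and Mki67, a marker of cycling cells, at 297, 455 and 184 CPM (-0.61). In cDC1-marker cells mitotic genes leaned the other way. Ube2c, of the anaphase-promoting machinery, was at 320, 184 and 219 CPM (0.78), and Aurka, a spindle kinase, at 42.7, 24.4 and 26.7 CPM (0.70). The cells with at most 0.5% of cell cycle UMIs made up 67.7% of DON and 50.8% of low glutamine Siglech cells, and 46.2% and 54.5% of cDC1-marker cells. Within them the S phase medians were -0.20, -0.26 and 0.25, and those for G2 and mitosis -0.10, -0.19 and 0.04. These cells were chosen by a low sum of the genes of these same lists. That choice bounds the medians, so they do not show how cell cycle genes differ outside the cycle.

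**Figure D4:**
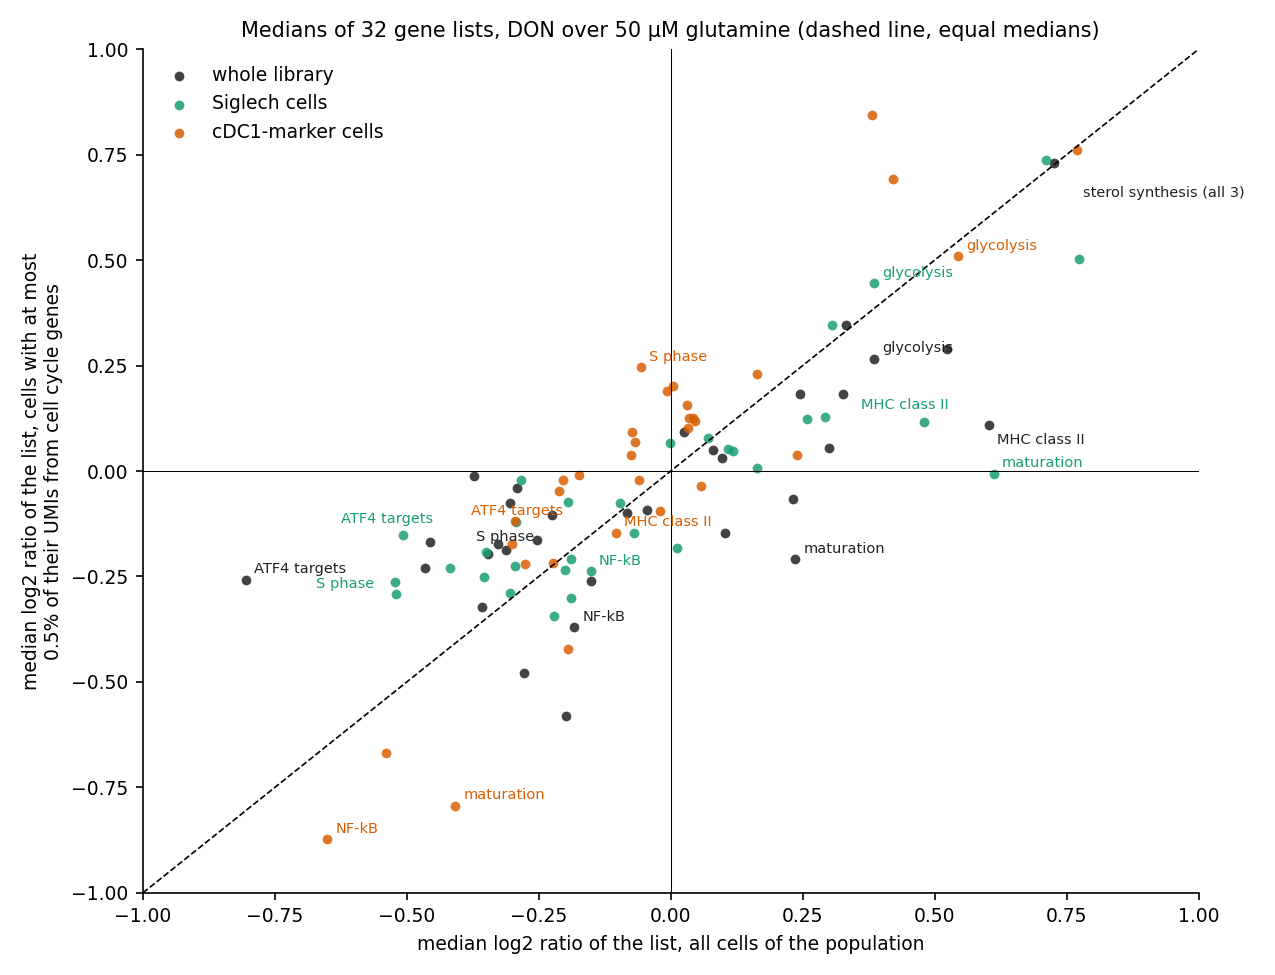
Median log2 ratio of DON over 50 µM glutamine of 32 gene lists in all cells (horizontal axis) and in cells with at most 0.5% of UMIs from cell cycle genes (vertical axis), in 3 populations; the dashed line marks equal medians. Sterol synthesis lies on the line at 0.73, 0.71 and 0.77, while ATF4 targets move from -0.81 to -0.26 and MHC class II genes from 0.60 to 0.11 in the whole library.

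MHC class II genes, which present peptides to CD4 T cells, were higher with DON in whole libraries, and not in cDC1-marker cells. Of 13 measured genes, 8 were at least 1.5-fold higher in whole libraries (median 0.60), 2 in Siglech cells (median 0.48) and 1 in cDC1-marker cells (median -0.10), and 0, 0 and 1 were lower. Cd74, the invariant chain, was at 4664 CPM with DON, 2919 CPM at low glutamine and 8000 CPM in control (0.68), and in cDC1-marker cells at 9565, 12122 and 13266 CPM (-0.34). H2-Ab1, a class II beta chain, was at 1398, 834 and 2704 CPM (0.74), and H2-Eb1, another, at 2190, 3443 and 3656 CPM in cDC1-marker cells (-0.65). The whole-library DON levels of Cd74 and H2-Ab1 were thus between low glutamine and control, and the DON cells of the cDC1-marker gate held the lowest levels of the 3. In cells with few cell cycle UMIs the medians were 0.11, 0.12 and -0.15. With cells carrying 3 of 7 progenitor genes left out, the whole-library median was 0.47.

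Ifi30 and H2-DMb2, which act where peptides are loaded, had ratios above 0 in cDC1-marker cells too. Ifi30 (ENSMUSG00000031838, chr8:70762774-70766663, minus strand), which reduces disulfide bonds of antigens, was at 239 CPM with DON, 93.6 CPM at low glutamine and 274 CPM in control (1.30). It was at 234, 89.3 and 259 CPM in Siglech cells (1.34) and at 158, 122 and 169 CPM in cDC1-marker cells (0.36). H2-DMb2, a chain of the peptide editor H2-DM, was at 43.8, 18.4 and 46.7 CPM in cDC1-marker cells (1.06). Low glutamine was the lowest of the 3 libraries in each of these. Lysosomal enzymes had medians of 0.33, 0.26 and -0.07, with 5, 1 and 0 of 20 at least 1.5-fold higher and 0, 0 and 1 lower. Type I interferon response genes had medians of 0.30, 0.29 and 0.03. The lysosomal medians were 0.18, 0.12 and 0.09 and the interferon medians 0.05, 0.13 and 0.10 in cells with few cell cycle UMIs.

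Markers of early cells leaned lower with DON. In whole libraries 8 of 14 measured progenitor markers were lower by 1.5-fold or more and 0 were higher (median -0.62), with medians of -0.78 in Siglech cells and -0.55 in cDC1-marker cells. Of the 14, 4 were higher with DON by less than 1.5-fold. Ctsg was at 34.5 CPM with DON, 121 CPM at low glutamine and 31.2 CPM in control (-1.68), and Mpo at 26.5, 78.0 and 26.1 CPM (-1.40). Cdk6, which is high in immature blood cells, was at 77.9, 206 and 55.5 CPM (-1.35), and Cd34, a stem and progenitor antigen, at 10.5, 32.9 and 9.41 CPM (-1.29). DON and control were close for these and low glutamine stood apart. The whole-library ratios of Ctsg and Mpo were -0.70 and -0.91 in cells with few cell cycle UMIs. The summed list was at 1524, 2027 and 1343 CPM. cDC1 markers, in contrast, were higher with DON in whole libraries, with 8 of 15 higher by 1.5-fold or more and 0 lower (median 0.68). Batf3 was at 28.8, 8.97 and 51.7 CPM (1.27) and Naaa, an amidase, at 59.1, 30.7 and 157 CPM (0.84), whereas Xcr1, the chemokine receptor of cDC1, was at 4.74, 3.47 and 32.5 CPM (0.20).

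Within Siglech cells, pDC markers as a list had a median of 0.01 over 22 measured genes, with 3 at least 1.5-fold higher and 1 lower. Ccr9, the chemokine receptor of mature pDC, was at 687 CPM with DON, 358 CPM at low glutamine and 657 CPM in control (0.93, and 0.47 in cells with few cell cycle UMIs). Upb1, a pyrimidine breakdown enzyme, was at 67.3, 28.0 and 83.7 CPM (1.13). Cox6a2, a respiratory chain subunit that pDC express, was lower, at 455, 821 and 472 CPM (-0.84, and -0.60 in cells with few cell cycle UMIs). Control lay near DON for Ccr9 and Cox6a2. Irf7, the regulator of interferon alpha genes, was at 110, 69.7 and 126 CPM (0.62), and the lineage factors Tcf4 and Irf8 were at 1152, 1287 and 1258 CPM (-0.16) and at 2202, 2159 and 2200 CPM (0.03).

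Genes of mature, migrating dendritic cells were higher with DON among Siglech cells, and this moved with doublets and with mature cells in the gate. Of 12 measured mature markers 8 were higher by 1.5-fold or more and 0 were lower (median 0.89), with summed levels of 668 CPM in DON, 343 CPM at low glutamine and 1001 CPM in control. Fscn1, the actin bundler of mature cells, was at 40.7, 10.2 and 56.5 CPM (1.59), and Ccr7, their lymph node homing receptor, at 42.7, 18.4 and 68.1 CPM (1.03). After removal of barcodes marked as doublets the ratios were 0.36 and 0.22. At least 3 mature markers were found in 2.03% of thinned Siglech cells with DON, 0.909% at low glutamine and 3.46% in control. The separate list of maturation and costimulation genes had a median of 0.61, which was -0.23 without doublets.

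Within cDC1-marker cells the genes lower with DON included lectins, Lyz2 and targets of NF-kB and p53. Cd209a, a C-type lectin typical of type 2 dendritic cells, was at 17.3 CPM with DON, 99.0 CPM at low glutamine and 17.1 CPM in control (-2.22, counting interval -2.45 to -1.98). Lyz2, the lysozyme of macrophages and some dendritic cells, was at 449, 1254 and 624 CPM (-1.47). Low glutamine was above both other libraries for each. Of 12 measured C-type lectins 4 were lower by 1.5-fold or more and 0 were higher (median -0.54). Markers of other cells were present in the gate: summed cDC2 markers were at 1040, 1085 and 866 CPM and summed monocyte and macrophage markers at 1043, 1832 and 1086 CPM. Without Lyz2 the sums were 594, 577 and 462 CPM. Of 13 measured members 1 was higher by 1.5-fold or more and 2 were lower (median 0.06). At least 3 cDC2 markers were found in 12.3%, 14.5% and 9.71% of the thinned cells, and at least 3 monocyte and macrophage markers in 6.38%, 7.45% and 5.72%. Their part in these ratios was not tested.

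Of 15 measured NF-kB and inflammatory genes 8 were at least 1.5-fold lower with DON in cDC1-marker cells and 0 were higher (median -0.65, and -0.87 in cells with few cell cycle UMIs), against medians of -0.18 in whole libraries and -0.15 in Siglech cells. Nfkbia, the inhibitor that NF-kB itself switches on, was at 78.2, 126 and 76.1 CPM (-0.65), and Relb, a subunit of NF-kB, at 19.3, 35.9 and 24.8 CPM (-0.75). Tnfaip2 was at 99.0, 194 and 75.9 CPM (-0.94). For these 3 genes DON and control were within 1.5-fold of each other. Without the 5 cells richest in each gene, Relb and Tnfaip2 had ratios of -0.69 and -0.82. The inflammatory genes Tnf and Il1b moved further, from -0.87 and -1.71 to -0.30 and -0.39. Of 14 measured p53 targets 5 were lower by 1.5-fold or more and 0 were higher (median -0.19, and -0.42 in cells with few cell cycle UMIs). Over all genes in this gate 2.8% were lower and 1.53% were higher by that bound. Cdkn1a, the p21 inhibitor of the cell cycle, was at 37.5, 153 and 61.9 CPM (-1.89), and Bbc3, the PUMA death factor, at 10.7, 25.7 and 19.6 CPM (-0.97). For Cdkn1a the ratio was -2.39 in cells with few cell cycle UMIs and -1.53 without the 5 cells richest in it.

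Several of the largest ratios inside the gates came from a few cells. Among genes 2-fold apart, 5 cells of the library with the higher level held at least 50% of the UMIs for 1 of 22 higher and 1 of 22 lower genes in whole libraries, 4 of 26 and 0 of 10 in Siglech cells, and 10 of 25 and 9 of 36 in cDC1-marker cells. Pf4, a platelet chemokine, was at 462 CPM with DON and 10.5 CPM at low glutamine in cDC1-marker cells (4.91), and 1 cell held 4298 of its 4371 UMIs; without the 5 richest cells the ratio was -0.62. S100a8, a calgranulin of neutrophils, was at 274 and 28.6 CPM (3.05), and 0.86 without them. Summed neutrophil markers were at 708, 94.8 and 402 CPM there. Without the 5 richest cells of each gene, 14 of the 25 higher and 20 of the 36 lower genes were still 2-fold apart, as were 22 of 26 and 10 of 10 in Siglech cells. Fdps, Scd2, Aldoc, Ankrd37 and Mif were among those spread over many cells. In the cDC1-marker gate 5 cells are a larger part of 255 low glutamine cells than of 658 DON cells. The removal was thus uneven there.

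**Figure D5:**
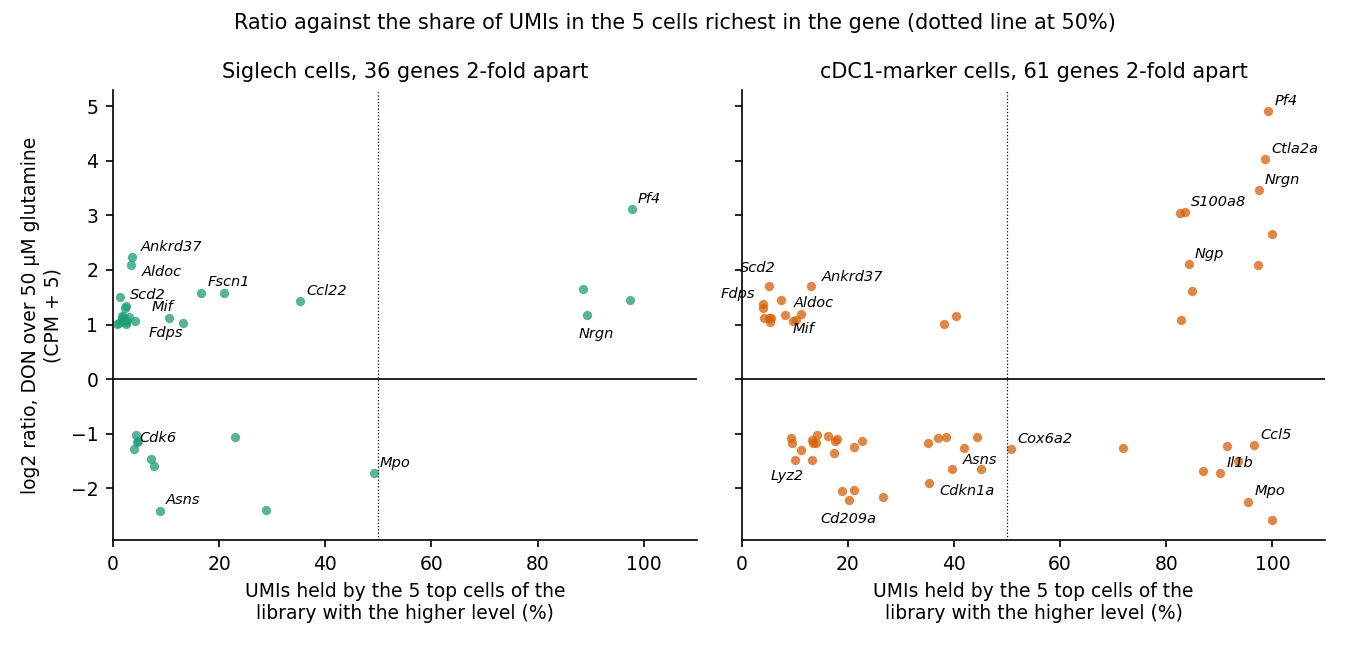
Log2 ratio (vertical axis) of each gene 2-fold apart against the share of its UMIs in the 5 cells richest in it in the library with the higher level (%, horizontal axis), for Siglech cells (left) and cDC1-marker cells (right). Pf4, Ctla2a, Nrgn and S100a8 lie beyond the dotted line at 50%, and Ankrd37, Aldoc, Scd2, Fdps and Mif lie below 20%.

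Outside both gates lay 4939 DON cells and 6220 low glutamine cells. Over the 9571 genes of at least 5 CPM there the median ratio was -0.07, and 237 were higher with DON by 1.5-fold or more (2.48%) and 171 were lower (1.79%). By that bound 15 of 24 measured sterol genes were higher and 0 lower (list median 0.63). Fdps was at 341 CPM with DON, 149 CPM at low glutamine and 269 CPM in control (1.17). ATF4 targets had a median of -0.88, and 20 of 27 were lower and 0 higher. Asns was at 5.98, 76.7 and 6.02 CPM (-2.89). Glycolysis genes had a median of 0.41, with 5 of 19 higher and 0 lower, and Ankrd37 was at 30.1, 4.16 and 84.9 CPM (1.94). Low glutamine was the lowest library for Fdps and Ankrd37 and the highest for Asns, as it was inside both gates.

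Myeloid markers also differed in these cells. Monocyte and macrophage markers were higher by 1.5-fold or more for 7 of 15 and lower for 0 (median 0.51), and neutrophil markers were higher for 8 of 13 and lower for 0 (median 0.65). Lyz2, at 894 and 1035 CPM (-0.21), Csf1r (-0.21), Ly6c2 (-0.28), Cd14 (-0.09) and F13a1 (-0.07) were lower with DON by less than that. In whole libraries, at least 3 monocyte and macrophage markers were found in 12.8% of thinned DON cells and 15.2% of thinned low glutamine cells. Progenitor markers were lower by 1.5-fold or more for 6 of 15 and higher for 0 (median -0.32), and erythroid and megakaryocyte markers lower for 4 of 5 and higher for 0 (median -1.08). Of the progenitor markers, Elane, at 34.7 and 25.5 CPM (0.38), Ms4a3 (0.24), Nkg7 (0.14) and Calr (0.14) were higher with DON by less than that. MHC class II genes were higher for 9 of 13 and lower for 0 (median 0.70).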

How the data were processed

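Single-cell RNA of FLT3L-grown mouse dendritic cell cultures was measured in 3 libraries, 1 per group. The deposited matrices hold raw UMI counts of 32285 genes per barcode that the authors had already called as cells. Cell Ranger 6.0.0 stands in the file headers and Cell Ranger 3.1.0, with mm10, in the submitters' processing notes, so which version was used is unclear. The gene annotation is not given in the sources used here, and 99.6% of gene identifiers were matched to GENCODE vM21 positions (GRCm38).

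Barcodes with 1000 or more UMIs, 500 or more genes and no more than 10% of UMIs from mitochondrial genes were kept. Doublets were kept, and their removal (Scrublet method, expected rate 0.08, 6.14%, 5.29% and 8.94% marked in DON, low glutamine and control) was an alternative. Counts were summed over cells and scaled to a total of 1000000 (CPM). Ratios are log2 with 5 CPM added to each side. Genes of at least 20 CPM in DON or low glutamine were counted at 2-fold, and members of 32 pathway and 12 marker lists (708 genes, of which Clec7a and Mx1 are not in the matrices) of at least 5 CPM at 1.5-fold. The members and lists were chosen with earlier results of these data known. With 1 library per group no test was run. Intervals are 95%: exact Poisson for CPM, Clopper-Pearson for shares and exact conditional binomial for ratios. They cover counting error only. Shares of cells with markers were taken after thinning to 2000 UMIs (seed 1).

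Named genes were, per population, the 10 highest and 10 lowest ratios of genes that reached 50 CPM (gate genes, predicted genes and those for haemoglobin, immunoglobulin, ribosomal or mitochondrial proteins left out), the 4 members of each pathway list furthest apart, and a fixed set that includes Asns, Ankrd37, Pgk1, Hmgcs1 and Cd209a. Some genes that this rule selects are not reported here. Other list members were named after their values were seen. The ratio step was checked on simulated counts. Alternatives were other pseudocounts, scalings, filters, gates and cell sets. Python 3.11.15, numpy 2.4.6, pandas 2.3.3, scipy 1.17.1 and scanpy 1.11.5 were used.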

Additional observations from a re-analysis of the deposited data

Results flagged for a closer look

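Among named genes that reached 20 CPM in both gates, 3 were at least 1.5-fold higher with DON than at low glutamine in Siglech cells and at least 1.5-fold lower in cDC1-marker cells. The difference between the gates was not tested, since each side has 1 library. Ccl22, a chemokine of mature dendritic cells, was at 58.0 CPM with DON and 18.4 CPM at low glutamine in Siglech cells (log2 ratio 1.43) and at 41.6 and 66.1 CPM in cDC1-marker cells (-0.61), which is 2.04 apart. Ccl5, a chemokine for T cells, was at 159 and 79.4 CPM (0.96) and at 145 and 342 CPM (-1.21), which is 2.17 apart. Ly86, the partner of the receptor CD180, was at 74.5 and 44.6 CPM (0.68) and at 29.4 and 79.6 CPM (-1.30), which is 1.98 apart. Without the 5 cells richest in each gene, the ratios were 1.46 and 0.63 for Ccl22 and 1.24 and 1.88 for Ccl5. For Ly86 they were 0.70 and -1.31, so of these 3 the opposite directions held for Ly86. In the cDC1-marker gate 5 cells are a larger part of the low glutamine cells than of the DON cells. Below 20 CPM in Siglech cells, Il1b also went both ways, at 5.19 and 0.952 CPM there (0.78) and at 2.64 and 20.1 CPM in cDC1-marker cells (-1.71), and without its 5 richest cells at 0.39 and -0.39.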

How the results depend on the processing

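No paired analysis was possible because each group is 1 library with no replicate number. With 1 library per group, neither a left-out replicate nor a test could be run, and the depth of 658 and 255 cDC1-marker cells limits the values of that gate. Scaling by median of ratios set to 0 a median log2 ratio of -0.06, -0.08 and 0.01 in whole libraries, Siglech cells and cDC1-marker cells, so ratios shifted by that much the other way. The sign held under every alternative for 26 of 26, 21 of 23 and 24 of 33 named genes 2-fold apart, and the 1.5-fold list medians kept theirs for 3 of 3, 2 of 3 and 2 of 2. The sizes held less often. A 2-fold size was kept under every alternative by 7, 6 and 10 of these genes. A 1.5-fold size was kept by 0 of the list medians in each population. The cause of the changes below was not tested.

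Counts of genes 2-fold apart moved with the settings. In whole libraries the 22 higher genes became 35 and 8 with pseudocounts of 1 and 20 CPM, 13 with each cell weighing the same, 13 at 50 CPM, 11 in cells with few cell cycle UMIs and 13 without progenitor-marker cells, and the 22 lower genes became 11 with 20 CPM added and 14 at 50 CPM. In Siglech cells the 26 higher genes became 41 and 10 with those pseudocounts, 13 with equal weights, 14 at 50 CPM and 13 with thinned gates. The 10 lower genes became 19 and 3, 16 with totals without mitochondrial and ribosomal protein genes, 3 with equal weights, 16 in cells of at least 2000 UMIs and at most 5% mitochondrial UMIs, and 2 at 50 CPM. In cDC1-marker cells the 25 higher genes became 11 with 20 CPM added, 38 at 5 CPM, 15 at 50 CPM, 38 with no minimum, 16 with at least 3 of the 7 genes, 313 with thinned gates, which leave 42 and 32 cells, and 16 without cells of both gates. The 36 lower genes became 14, 17 at 50 CPM, 248 with thinned gates, and 16 when each gene was counted without its 5 richest cells, with the minimum of 20 CPM applied again.

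The Siglech shares of 37.8% and 33.1% became 32.9% and 28.3% in the stricter cells, 35.9% and 31.8% without doublets, 44.1% and 38.5% at 2 UMIs, 29.1% and 24.9% at 5 UMIs, and 15.4% and 14.8% after thinning. The cDC1-marker shares of 7.40% and 2.64% became 8.94% and 3.41% in the stricter cells, 11.2% and 4.20% with 3 of the 7 genes, 3.87% and 1.45% with 5, 0.483% and 0.345% after thinning, and 2.13% and 1.02% with 3 of the 7 after thinning. With 5 of the 7 after thinning the order turned, at 0.046% (4 cells) and 0.0861% (8 cells). The DON share was 6.80% without doublets, 6.64% without cells of both gates and 6.49% with 2 of the 7 after thinning.

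Signs reversed for genes held by few cells. The maturation median of 0.61 in Siglech cells became -0.033 with equal weights, -0.23 without doublets, -0.059 with thinned gates and -0.0063 in cells with few cell cycle UMIs. In Siglech cells, Pf4 became -0.83 with thinned gates and -0.63 without its 5 richest cells, and Nrgn became -0.079 with equal weights, -0.55 with thinned gates and -0.48 without its 5 richest cells. In cDC1-marker cells, Pf4 became -0.21 without cells of both gates and -0.62 without its 5 richest cells, Ctla2a became -0.48 with thinned gates and -0.013 without cells of both gates, and Nrgn became -0.40, -0.22 and, in cells with few cell cycle UMIs, -0.14. S100a8 became -0.082 with 3 of the 7 genes, Ngp -0.13 and Cox6a2 0.10 in cells with few cell cycle UMIs, Mpo 0.69 without doublets, and Ccl5 0.30 without doublets and 1.88 without its 5 richest cells.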

Other observations

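Antioxidant targets of NRF2, which protect against oxidants, had medians of -0.28 in whole libraries, -0.19 in Siglech cells and -0.29 in cDC1-marker cells. They were -0.48, -0.21 and -0.12 in cells with few cell cycle UMIs. In cDC1-marker cells the median was -0.055 without doublets and 0.019 with thinned gates. Txnrd1, thioredoxin reductase, was at 50.3, 85.8 and 40.6 CPM in whole libraries (-0.72), and Gsr, glutathione reductase, at 22.3, 41.4 and 21.3 CPM in Siglech cells (-0.77). Csf1r, the receptor for the macrophage growth factor, was the growth factor receptor furthest apart in Siglech cells, at 33.5, 53.7 and 29.6 CPM (-0.61).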
